A study of Mus musculus with 5 samples.

Results

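The nuclear-encoded subunits of the mitochondrial respiratory chain and of the ATP synthase, with some of their assembly factors, were followed in a mouse mammary tumour line and its bone-seeking and liver-seeking sub-lines. Members were taken by name: probe sets annotated to 1 gene whose symbol starts with Nduf, Uqcr, Cox4, Cox5, Cox6, Cox7, Cox8, Sdh or Atp5. Of the probe sets whose symbols matched, 185 had 1 symbol and 8 had several and were left out. They gave 94 genes among the 18193 genes measured with such a probe set, and each gene was represented by its brightest probe set. By complex, 34 belonged to complex I, 4 to complex II, 8 to complex III, 19 to complex IV and its associated proteins, 17 to the ATP synthase (complex V), and 12 were assembly factors of complexes I and II. The highest of the 5 intensities reached the median of all values, 25.1, for 87 members, which are among the 12609 genes tested. The prefixes do not take in cytochrome c1 (Cyc1) or the mitochondrially encoded subunits, and 1 probe set per gene cannot separate a subunit's transcript from expressed copies of near-identical sequence.

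Mouse NT2.5 cells, an epithelial line from a mammary tumour of mice that carry the neu oncogene under a mammary tumour virus promoter, were compared with sub-lines derived from them on 1-colour Affymetrix arrays. The 5 arrays held, 1 each, the bone sub-line at passage 6 (final) and passage 3 (early), the liver sub-line at passage 3 (final) and passage 1 (early), and the parental cells. The labels give the bone sub-line a preference for bone, the liver sub-line a preference for liver, and the parental cells a preference for bone, liver and lung as sites of metastasis. Every line thus carries neu, each sub-line is a single lineage, and the labels do not say what a passage consisted of.

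The respiratory chain passes electrons from NADH (complex I) and succinate (complex II) through ubiquinone and complex III to cytochrome c, and complex IV hands them to oxygen. Complexes I, III and IV pump protons across the inner membrane, and the ATP synthase uses the returning protons to make ATP. Each complex has a small set of catalytic or core subunits and a larger set of accessory subunits that stabilise it or help its assembly, and complex IV has tissue-specific isoforms of several of these.

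The median intensity over all probe sets was 21.9 at bone passage 6 and between 24.6 and 26.4 on the other 4 arrays. The 5'/3' intensity ratio of Gapdh was 1.33 at liver passage 1 and between 1.24 and 1.27 on the other 4, and that of beta-actin lay between 0.842 and 0.927. Of 6 mammary epithelial markers 5 were measured above the filter, all but Krt19, and the 6 summed to 20696 and 18248 at bone passages 6 and 3, 17059 and 17665 at liver passages 3 and 1, and 19218 in parental cells. All 7 macrophage markers passed the filter and summed to 1180 and 726 at bone passages 6 and 3, 730 and 800 at liver passages 3 and 1, and 524 in parental cells. Most of that sum on the bone arrays was Cd14. Without it, a sum taken after the data were seen, the other 6 summed to 251.4 and 275.7 at bone passages 6 and 3, 488 and 588 at liver passages 3 and 1, and 188 in parental cells. The sum was then higher on the liver arrays, as were Cd68, Csf1r, Lyz2 and Fcgr3. Ptprc and Adgre1 were highest at liver passage 1 (25.7 and 49.9) but lower at liver passage 3 (6.1 and 27.6) than on both bone arrays. The part of these markers in the results below was not tested. None of the 3 hepatocyte markers found passed the filter, and the summed level of that list was between 11.5 and 37.4. In bulk RNA, fewer cells of a type and less RNA per cell cannot be told apart.

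Most respiratory chain genes were slightly higher in bone than in liver arrays, and none of them passed the limma test between any of the lines. The median member was higher by 0.20 on the log2 scale in bone than in liver arrays (1.15-fold), against -0.02 for all genes tested. Against parental cells the median was 0.12 for the bone sub-line (all genes -0.02) and -0.07 for the liver sub-line (all genes 0.01), which became 0.01 without liver passage 1. These comparisons share the parental array, and the passage numbers differ between the sub-lines, so that line and passage are mixed in them. At passage 3, the only passage present in both sub-lines, the median member was 0.11 higher in the bone array than in the liver array (all genes -0.003).

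Summed over the 87 members, the intensity was 175616 at bone passage 6 and 171113 at bone passage 3, against 156901 at liver passage 3, 138053 at liver passage 1 and 159220 in parental cells. The sums thus ran highest in both bone arrays and lowest at liver passage 1, with parental cells just above liver passage 3. Sums over all genes tested had the same order of the arrays, over a range that was smaller relative to their size. They were 5641062 and 5504617 at bone passages 6 and 3, 5493340 in parental cells, and 5432964 and 5407930 at liver passages 3 and 1. Both bone arrays were above both liver arrays for 50 of the 87 members (57.5%), where 21.2% of all genes tested did so, and both were below for 8 (9.2%), against 25.9% of all genes. Under quantile normalization they were above for 40 (46.0%; all genes 23.8%) and below for 10 (11.5%; all genes 23.4%). Both bone arrays lay above the parental array for 54 members (62.1%; all genes 33.5%) and below it for 12 (13.8%; all genes 37.7%). Both liver arrays lay above it for 20 (23.0%; all genes 35.2%) and below it for 33 (37.9%; all genes 32.8%). Both conditions together, bone above and liver below, held for 19 members (21.8%; all genes 5.54%), and the opposite for 3 (3.4%; all genes 8.08%). Bone passage 6 was the highest of the 5 arrays for 46 members (52.9%; all genes 17.2%) and liver passage 1 the lowest for 44 (50.6%; all genes 23.7%), whereas liver passage 1 was the highest for 1 member (all genes 24.7%) and bone passage 6 the lowest for 9 (all genes 26.2%). At bone passage 6, 5 members were at least 1.5-fold above parental cells (all genes 4.81%) and 0 at least 1.5-fold below (all genes 9.48%); at liver passage 1, 1 was above by that much (all genes 7.99%) and 13 were below (all genes 9.20%). With 2 against 2 arrays the smallest two-sided exact permutation p for a single gene is 0.333, so a separation is a description.

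At an adjusted p under 0.05 over all 12609 genes, limma called 0 of 87 members in each comparison, where it called 0.190% of all genes between bone and liver, 0.135% between bone and parental cells and 0.0159% between liver and parental cells. At an unadjusted p under 0.05, 6 members (6.9%) were higher in bone than in liver, beside 5.03% of all genes, and 0 were lower, beside 9.05% of all genes. The 6 were Ndufa4, Ndufb2, Atp5g1, Uqcr11, Ndufa7 and Ndufs8. Between bone and parental cells 1 member, Uqcr10, was higher at that level (all genes 3.32%) and 0 were lower (all genes 4.85%), and between liver and parental cells 0 were higher (all genes 4.08%) and 0 lower (all genes 3.42%).

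Probe sets of respiratory chain genes are bright on these arrays, with a median of the mean intensity of 1534 for the members and 184.7 for all genes tested. Brightness depends on the probe set and is not an expression level that can be set against another gene's. Among the 1594 genes with a mean intensity of at least 861, the lower quartile of the members, the median difference between bone and liver was 0.11 and both bone arrays were above both liver arrays for 35.2%. For the 65 members at or above that level the values were 0.25 and 64.6%. Bone passage 6 was the highest array for 38.1% of the 1594 genes and 53.8% of the 65 members. Liver passage 1 was the lowest for 32.6% and 55.4%. The level of 861 was chosen after the data were seen. The part that brightness has in the members' shift was not tested.

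**Figure D1:**
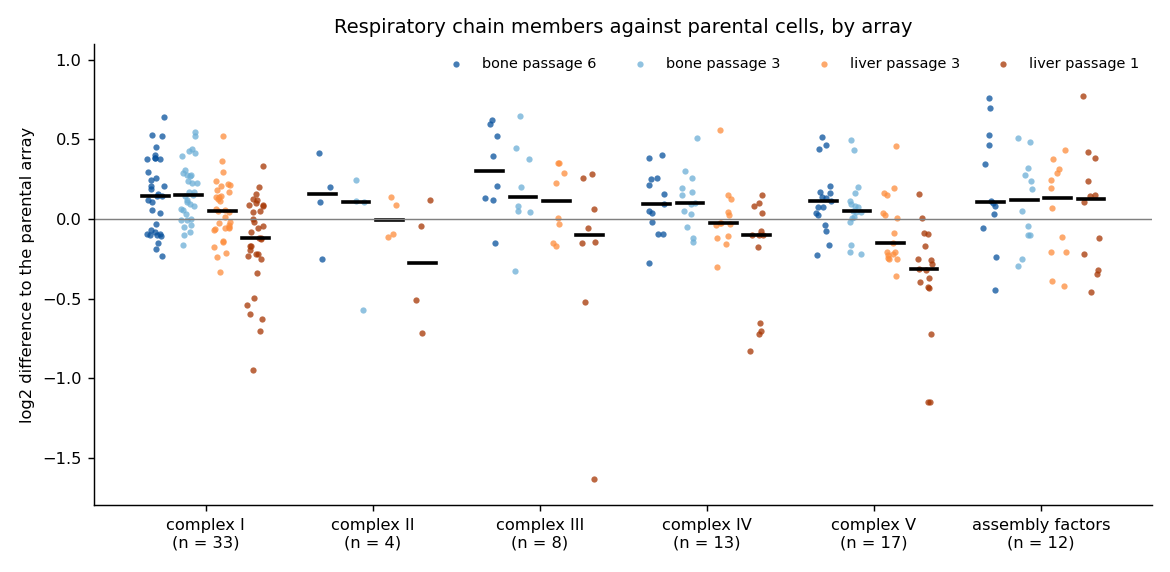
Log2 difference of each tested member to the parental array (y axis) by complex (x axis) and array (colour); each point is 1 gene and each black bar the median of that complex on that array. The medians of complex V are 0.11 and 0.05 at bone passages 6 and 3 and -0.15 and -0.31 at liver passages 3 and 1, while those of the assembly factors lie between 0.11 and 0.13 on all 4 arrays.

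By complex, the median difference between bone and liver was 0.20 for complex I, 0.19 for complex II, 0.17 for complex III, 0.26 for complex IV and 0.36 for the ATP synthase, and 0.10 for the assembly factors. Against parental cells the medians for the bone sub-line ran between 0.11 (ATP synthase) and 0.21 (complex III). Those for the liver sub-line were -0.20 for the ATP synthase, -0.19 for complex II, -0.06 for complex IV, -0.04 for complex III and -0.03 for complex I, and 0.13 for the assembly factors. Thus the medians of complexes II, IV and V had the bone arrays on one side of the parental array and the liver arrays on the other. For complexes II and IV the medians at liver passage 3 were close to parental cells (-0.005 and -0.025), against -0.28 and -0.10 at liver passage 1. The liver medians of complexes I, III and IV against parental cells changed sign under quantile normalization. Between bone and liver, that normalization gave 0.08 for complex III, 0.13 for complex IV and 0.23 for the ATP synthase. Without liver passage 1 the medians were 0.11 for complex I, 0.20 for complex II, 0.19 for complex III, 0.17 for complex IV and 0.18 for the ATP synthase, a different order of the complexes.

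Promoter sequence was examined for motifs of factors known to bind many respiratory genes. The shares were taken over all tested members with a matched promoter and were not split by the order of the sub-lines. RefSeq promoters (GRCm38.p6, 250 bases before to 50 after the gene start) were matched for 72 of the 87 tested members. The NRF1 motif, GCGCA and GCGC with any 1 base between them, was present on either strand in 18 of them (25%), against 10.9% of tested genes and 4.6% of all promoters. The YY1 motif AANATGGCG was present in 11 (15.3%), against 5.7% of tested genes and 2.4% of all promoters. The ETS or GABP motif ACTTCCGG was present in 5 (6.9%; tested genes 8.6%), the ESRRA motif TNAAGGTCA in 2 (2.8%; tested genes 1.0%) and the CCAAT box in 29 (40.3%; tested genes 42.6%). None of these motifs contains another, and a match is a description of the letters and not a bound site. Shown here, 5′ to 3′ on the gene's strand with the match in capitals, are Sdha with its 3 NRF1 matches, 4 of the members that were lowest at liver passage 1 and held an NRF1 or GABP match, and Ndufb11, which was lower in bone and held a YY1 match.
Uqcrh chr4:116075071-116075121 (-): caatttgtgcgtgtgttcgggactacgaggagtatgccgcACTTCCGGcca
Atp5k chr5:108434400-108434489 (-): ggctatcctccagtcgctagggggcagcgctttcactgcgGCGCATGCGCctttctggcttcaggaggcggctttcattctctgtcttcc
Ndufa5 chr6:24527691-24527756 (-): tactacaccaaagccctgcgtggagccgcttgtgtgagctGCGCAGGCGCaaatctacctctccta
Sdhd chr9:50603879-50603968 (-): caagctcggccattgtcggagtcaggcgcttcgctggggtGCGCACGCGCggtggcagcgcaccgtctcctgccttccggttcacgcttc
Sdha chr13:74350241-74350378 (-): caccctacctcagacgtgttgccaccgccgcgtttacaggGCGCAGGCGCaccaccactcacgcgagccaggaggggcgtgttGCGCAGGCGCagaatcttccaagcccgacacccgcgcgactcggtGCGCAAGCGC
Ndufb11 chrX:20617782-20617869 (-): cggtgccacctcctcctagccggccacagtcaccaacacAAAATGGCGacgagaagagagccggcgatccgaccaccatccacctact
Uqcrh holds the GABP match and Atp5k, Ndufa5 and Sdhd an NRF1 match, and all 4 were lowest at liver passage 1 (values below). They were picked for that order, and other members with such a match, Uqcr11 among them, were lowest there too. Ndufaf4 also holds an NRF1 match and was highest at liver passage 1, at 261.8. Liver passage 1 was the lowest array for 50.6% of all tested members, and a link between motif and level was not tested. Sdha holds the same NRF1 motif 3 times and was at 691.4 at liver passage 1, against 668.1 at liver passage 3.

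Complex I, which oxidises NADH, had 27 of 33 tested subunits higher in bone than in liver on average, and both bone arrays above both liver arrays for 19. Ndufb2, an accessory subunit of the membrane arm, had the largest difference. Its intensity was 1911 at bone passage 6 and 1874 at bone passage 3, against 1336 at liver passage 3, 949.5 at liver passage 1 and 1391 in parental cells. Both bone arrays were thus the highest of the 5 and liver passage 1 the lowest, and the difference between bone and liver was 0.74 ± 0.22 (SE, n = 2 passages per sub-line here and below; limma adjusted p = 0.235). Ndufa5, an accessory subunit of the peripheral arm, was measured at 1130.0 at bone passage 6 and 903 at bone passage 3, against 836 at liver passage 3, 440.5 at liver passage 1 and 867 in parental cells. Its bone arrays were the highest and liver passage 1 alone was far below the rest, and the difference was 0.72 ± 0.32 (adjusted p = 0.383), between 0.27 and 1.17 when 1 array was left out.

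The 6 core subunits of complex I that were tested belong to its NADH-binding or quinone-binding modules. Ndufs8, an iron-sulphur subunit, had 4075 at bone passage 6 and 3980.5 at bone passage 3, against 2934 at liver passage 3, 3022 at liver passage 1 and 3404 in parental cells. The bone arrays were the highest and the passages of each sub-line lay close together, and the difference was 0.43 ± 0.18 (adjusted p = 0.348). Ndufv1, which binds NADH and the flavin, had 2229 at bone passage 6 and 2086 at bone passage 3, against 1628 at liver passage 3, 1710.4 at liver passage 1 and 1707 in parental cells. The liver arrays were close to parental cells and the bone arrays above both, by 0.37 ± 0.18 over liver and 0.34 ± 0.22 over parental cells (adjusted p = 0.411 and 0.780). Ndufs1, which carries iron-sulphur clusters of the NADH module, differed by 0.24 ± 0.19, Ndufv2 by 0.12 ± 0.18 and Ndufs7, next to the quinone site, by 0.12 ± 0.18, each with both bone arrays above both liver arrays. Ndufs3 was the exception, with a difference of -0.09 ± 0.19 and overlapping arrays. The median of the 6 was 0.18 between bone and liver and that of the 27 other subunits 0.20.

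A few complex I subunits had the opposite order. Ndufa1, an accessory subunit anchored in the membrane, had 2126 at bone passage 6 and 2206 at bone passage 3, against 2732 at liver passage 3, 2521 at liver passage 1 and 2366 in parental cells. Its bone arrays were the lowest of the 5 and its liver arrays the highest, a difference of -0.28 ± 0.18 (adjusted p = 0.525). Ndufb11, an X-linked subunit of the membrane arm, had 1648 at bone passage 6 and 1777 at bone passage 3, against 2143 at liver passage 3, 1998 at liver passage 1 and 1884 in parental cells, which is the same order, and differed by -0.27 ± 0.18 (adjusted p = 0.534). Ndufc1 was the only other tested complex I subunit with both bone arrays below both liver arrays (-0.18 ± 0.18). Ndufb9, with Ndufs8 the brightest of the complex, differed by 0.25 ± 0.18.

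**Figure D2:**
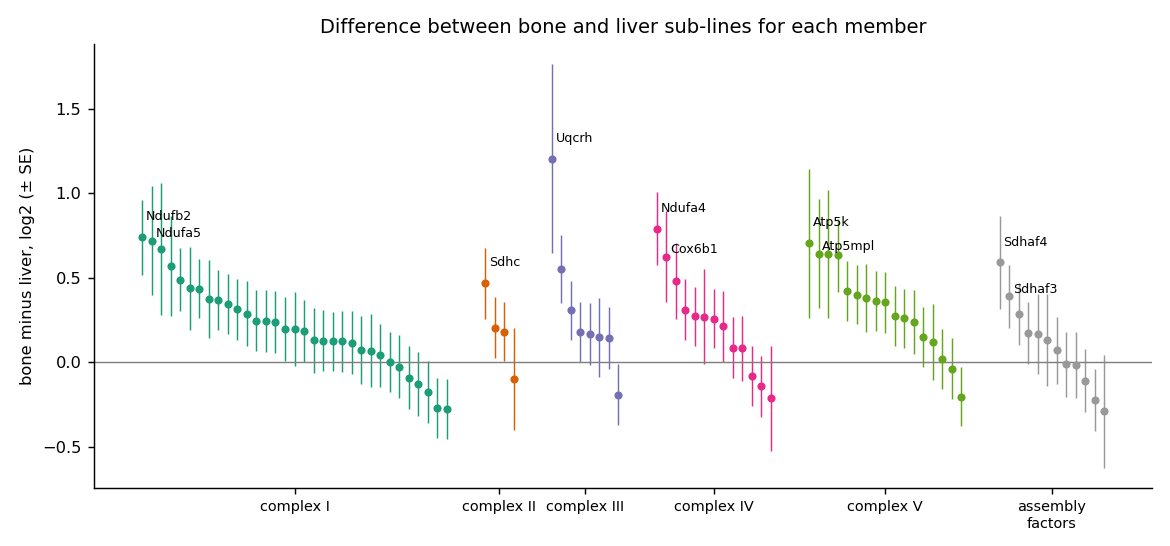
Log2 difference between the bone and liver sub-lines (y axis, bone minus liver) of each tested member, ordered within each complex (x axis); points are the limma estimate from 2 passages per sub-line and bars its standard error. Most points lie above 0, up to 1.20 for Uqcrh, and 18 of the 87 lie below 0.

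Complex II, succinate dehydrogenase, had 3 of its 4 subunits with both bone arrays above both liver arrays. Sdhc, a membrane anchor, had 1786 at bone passage 6 and 1674 at bone passage 3, against 1433 at liver passage 3, 1084 at liver passage 1 and 1549.7 in parental cells. Bone was highest and liver passage 1 lowest, and the difference was 0.47 ± 0.21 (adjusted p = 0.383), between 0.27 and 0.67 when 1 array was left out. Sdha, the flavoprotein that oxidises succinate, had 772 at bone passage 6 and 771 at bone passage 3, against 668 at liver passage 3, 691 at liver passage 1 and 715 in parental cells, a narrow range with bone highest and liver lowest (0.18 ± 0.18). Sdhb, the iron-sulphur subunit, differed by 0.20 ± 0.18. Sdhd, the other anchor, had 890.0 at bone passage 6 and 709.5 at bone passage 3, against 1129.6 at liver passage 3, 642 at liver passage 1 and 1064 in parental cells. It was high at liver passage 3 and in parental cells and low at liver passage 1 and bone passage 3, so its groups overlapped; the difference of -0.10 ± 0.30 changed sign when 1 array was left out.

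Complex III had the member with the largest difference of all. Uqcrh, the hinge protein that binds cytochrome c1, had 1738 at bone passage 6 and 1460.0 at bone passage 3, against 1314 at liver passage 3, 351 at liver passage 1 and 1122 in parental cells. Liver passage 1 was far below the other 4 arrays, of which both bone arrays were the highest. The difference between bone and liver, 1.20 ± 0.56 (adjusted p = 0.392), was 0.28 without that array. Uqcr11, a small accessory subunit, had 1385 at bone passage 6 and 1380.2 at bone passage 3, against 1062 at liver passage 3, 828 at liver passage 1 and 1198 in parental cells, with bone highest, and differed by 0.55 ± 0.20 (adjusted p = 0.303). Uqcr10, another small subunit, had 1222 at bone passage 6 and 1267 at bone passage 3, against 1028 at liver passage 3, 978 at liver passage 1 and 803 in parental cells. All 4 sub-line arrays were above parental cells, by 0.62 ± 0.22 for bone (adjusted p = 0.500, the lowest of any member in that comparison) and 0.32 ± 0.22 for liver (adjusted p = 0.806).

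The core proteins of complex III and its Rieske protein differed less. Cytochrome c1, a catalytic subunit that the prefixes do not take in, differed by 0.37 and is given below. Uqcrc1, a core protein, had 2091 at bone passage 6 and 1853 at bone passage 3, against 2277 at liver passage 3, 2229.6 at liver passage 1 and 2323 in parental cells, with parental cells highest and bone lowest, a difference of -0.19 ± 0.18 between bone and liver. Uqcrc2, the other core protein, differed by 0.14 ± 0.19, the Rieske iron-sulphur protein Uqcrfs1 by 0.15 ± 0.24 with overlapping arrays, and the small subunits Uqcrb and Uqcrq by 0.17 ± 0.18 and 0.18 ± 0.18. The sign for Uqcrq turned to -0.10 when the probe sets of a gene were averaged, and that for Uqcrfs1 turned when 1 array was left out. For Uqcrq the probe set with the opposite sign was dim, with intensities between 20.0 and 51.3.

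In complex IV the largest difference was that of Ndufa4, a protein first assigned to complex I that associates with cytochrome oxidase. It had 4122 at bone passage 6 and 3611 at bone passage 3, against 2559.6 at liver passage 3, 1932 at liver passage 1 and 3152 in parental cells. The 2 bone arrays were the highest, parental cells lay between the sub-lines, and both liver arrays were the lowest. The difference between bone and liver was 0.79 ± 0.22 (adjusted p = 0.213, the lowest of any member), and that between liver and parental cells -0.50 ± 0.26 (adjusted p = 0.750, also the lowest). Cox6b1, which faces the intermembrane space, had 4086 at bone passage 6 and 3760.2 at bone passage 3, against 3252 at liver passage 3, 1976 at liver passage 1 and 3528 in parental cells, with liver passage 1 alone far below, and differed by 0.63 ± 0.27 (adjusted p = 0.365), between 0.27 and 0.98 when 1 array was left out. Cox6c, another small subunit, differed by 0.48 ± 0.23, Cox5b by 0.31 ± 0.18, Cox8a by 0.27 ± 0.18 and Cox4i1, the widely expressed form of subunit 4, by 0.26 ± 0.18, all with both bone arrays above both liver arrays.

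Other subunits of complex IV did not separate the sub-lines. Cox5a had 4285 at bone passage 6 and 4144 at bone passage 3, against 4652 at liver passage 3, 4269.9 at liver passage 1 and 4575 in parental cells, a range in which the groups overlapped (-0.08 ± 0.18). Cox6a1, the widely expressed form of subunit 6a and the brightest of the complex, differed by 0.09 ± 0.18, and Cox7a2l, a supercomplex factor, by 0.08 ± 0.19. Cox7a2 had 4597 at bone passage 6 and 4285 at bone passage 3, against 4799 at liver passage 3, 2820.5 at liver passage 1 and 4659 in parental cells. It was low at liver passage 1 only, and its difference of 0.27 ± 0.28 turned to -0.11 without that array. Cox8c differed by -0.14 ± 0.18, the only tested subunit of this complex with both bone arrays below both liver arrays.

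The heart and muscle isoforms of complex IV were at or near the background. Cox6a2 had 30.8 at bone passage 6 and 64.6 at bone passage 3, against 67.4 at liver passage 3, 44.8 at liver passage 1 and 40.6 in parental cells, and Cox4i2, an isoform known from lung, had 38.4 at bone passage 6 and 26.6 at bone passage 3, against 28.9 at liver passage 3, 22.4 at liver passage 1 and 25.2 in parental cells. Both passed the filter without separating the sub-lines. Cox7a1, at 23.7 on its highest array, was just outside the filter and Cox4i2, at 38.4, was the member nearest inside it. Cox8b, Cox6b2, Cox7b2 and the Ndufa4 paralogue Ndufa4l2 did not pass, with highest intensities between 6.0 and 17.6. Cox7c and the complex I subunit Ndufb4 did not pass either, with highest intensities of 15 and 16.9, and of these only probe sets with 1 symbol were considered. The summed level of the 3 muscle markers was between 63.4 and 119.1.

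The ATP synthase had the largest median difference of the complexes when all arrays were used, but not without liver passage 1 (0.18, against 0.20 for complex II). It had 15 of 17 subunits higher in bone than in liver on average and 12 with both bone arrays above both liver arrays. The catalytic F1 head was measured by 5 subunits. Atp5b, the catalytic beta subunit and the brightest member, had 6374 at bone passage 6 and 6023 at bone passage 3, against 4925 at liver passage 3, 5338 at liver passage 1 and 5691 in parental cells. Both bone arrays were above parental cells and both liver arrays below, a difference of 0.27 ± 0.18 (adjusted p = 0.533). Atp5a1, the alpha subunit, had 5204 at bone passage 6 and 5043 at bone passage 3, against 3782 at liver passage 3, 4234 at liver passage 1 and 4497 in parental cells, in the same order (0.36 ± 0.18, adjusted p = 0.433). Atp5d, the delta subunit, differed by 0.40 ± 0.18 and Atp5e, the epsilon subunit, by 0.15 ± 0.18, whereas the gamma subunit Atp5c1, at -0.04 ± 0.18, had overlapping arrays and a sign that turned under median centring.

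Of the genes for the proton-carrying c ring, which encode the same mature protein, Atp5g1 differed most. It had 1786 at bone passage 6 and 1777 at bone passage 3, against 1339.9 at liver passage 3, 974 at liver passage 1 and 1314 in parental cells. Bone was highest and liver passage 1 lowest, with a difference of 0.63 ± 0.22 (adjusted p = 0.281). Atp5g2 and Atp5g3 differed by 0.26 ± 0.18 and 0.24 ± 0.19, both also with separated sub-lines. The probe sets of Atp5g2 disagreed, and its difference turned to -0.06 when they were averaged. The probe set with the opposite sign (-0.38) was dim, with intensities between 26.2 and 56.1. In the peripheral stalk, Atp5o, Atp5j and Atp5h differed by 0.42 ± 0.18, 0.38 ± 0.20 and 0.36 ± 0.18. Atp5pb, the b subunit of the same stalk, had 3214 at bone passage 6 and 3116 at bone passage 3, against 3692 at liver passage 3, 3610.4 at liver passage 1 and 3599 in parental cells, with bone lowest and a difference of -0.21 ± 0.18 (adjusted p = 0.631). The small membrane subunits Atp5k, Atp5md and Atp5mpl differed by 0.70 ± 0.44, 0.64 ± 0.38 and 0.64 ± 0.32, and for each of these 3 liver passage 1 was the lowest array. Without that array the differences were 0.03, 0.05 and 0.18.

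The assembly factors had dimmer probe sets, with medians on the 5 arrays between 173.9 and 208.3, and their median difference between bone and liver of 0.10 compares with 0.24 for the 75 tested subunits. Both bone arrays were above both liver arrays for 4 of 12 and below for 2. Sdhaf4, which helps mature the flavoprotein of complex II, had 656 at bone passage 6 and 539 at bone passage 3, against 500.4 at liver passage 3, 303 at liver passage 1 and 381 in parental cells, with bone highest and liver passage 1 lowest (0.59 ± 0.28, adjusted p = 0.393; 0.24 without liver passage 1). Ndufaf7, a methyltransferase for complex I assembly, was above parental cells on both bone arrays by 0.52 ± 0.22 (adjusted p = 0.619). Ndufaf1, a complex I assembly factor, was higher on both liver arrays than in parental cells by 0.41 ± 0.22 and differed by -0.22 ± 0.18 between bone and liver. Ndufaf3 was below parental cells on all 4 sub-line arrays, by a difference of -0.35 ± 0.24 for bone and -0.33 ± 0.24 for liver. So was Sdhaf2, needed to attach the flavin to Sdha, with -0.27 ± 0.23 for bone and -0.25 ± 0.23 for liver.

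Within a sub-line, more members were at least 1.5-fold apart between the liver passages than between the bone passages. The median member was 0.05 higher at bone passage 6 than at bone passage 3 (all genes -0.04) and 0.12 higher at liver passage 3 than at liver passage 1 (all genes 0.02). Set against all genes, both median shifts were of similar size. There is 1 array per passage, so no test applies. Between bone passages 1 member, Ndufaf6, was at least 1.5-fold higher at passage 6 (all genes 2.55%) and 1, Cox6a2, at least 1.5-fold lower (all genes 7.70%). Between liver passages 12 members (13.8%) were at least 1.5-fold higher at passage 3 (all genes 7.61%) and 4 at least 2-fold higher (all genes 1.68%), while 1, Ndufaf4, was at least 1.5-fold lower (all genes 5.46%). Between bone passage 3 and liver passage 3, 0 members were at least 1.5-fold higher in bone (all genes 6.99%) and 1, Sdhd, was at least 1.5-fold lower (all genes 8.64%).

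The 4 members at least 2-fold higher at liver passage 3 than at liver passage 1 were small accessory subunits. Uqcrh was 3.63-fold higher, with the values given above. Atp5k, the e subunit of the ATP synthase membrane part, was 2.54-fold higher and had 1466 at bone passage 6 and 1047 at bone passage 3, against 1214 at liver passage 3, 468 at liver passage 1 and 1059.6 in parental cells. Ndufb3, a membrane-arm subunit of complex I, was 2.33-fold higher and had 1477 at bone passage 6 and 1356 at bone passage 3, against 1356 at liver passage 3, 573 at liver passage 1 and 941 in parental cells. For both, liver passage 1 was by far the lowest array, and for Ndufb3 parental cells lay between it and the other 3. Atp5md, a small subunit linked to ATP synthase dimers, was 2.27-fold higher and had 2033 at bone passage 6 and 2001 at bone passage 3, against 1949 at liver passage 3, 851 at liver passage 1 and 1416 in parental cells. The other 8 were Atp5mpl (1.91-fold), Ndufa5 (1.87), Ndufb10 (1.78), Sdhd (1.74), Cox7a2 (1.70), Cox6b1 (1.64), Sdhaf4 (1.62) and Ndufa3 (1.52). All 12 were lowest of the 5 arrays at liver passage 1. The highest Gapdh 5'/3' ratio was on that array too, and its part in these values was not tested.

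**Figure D3:**
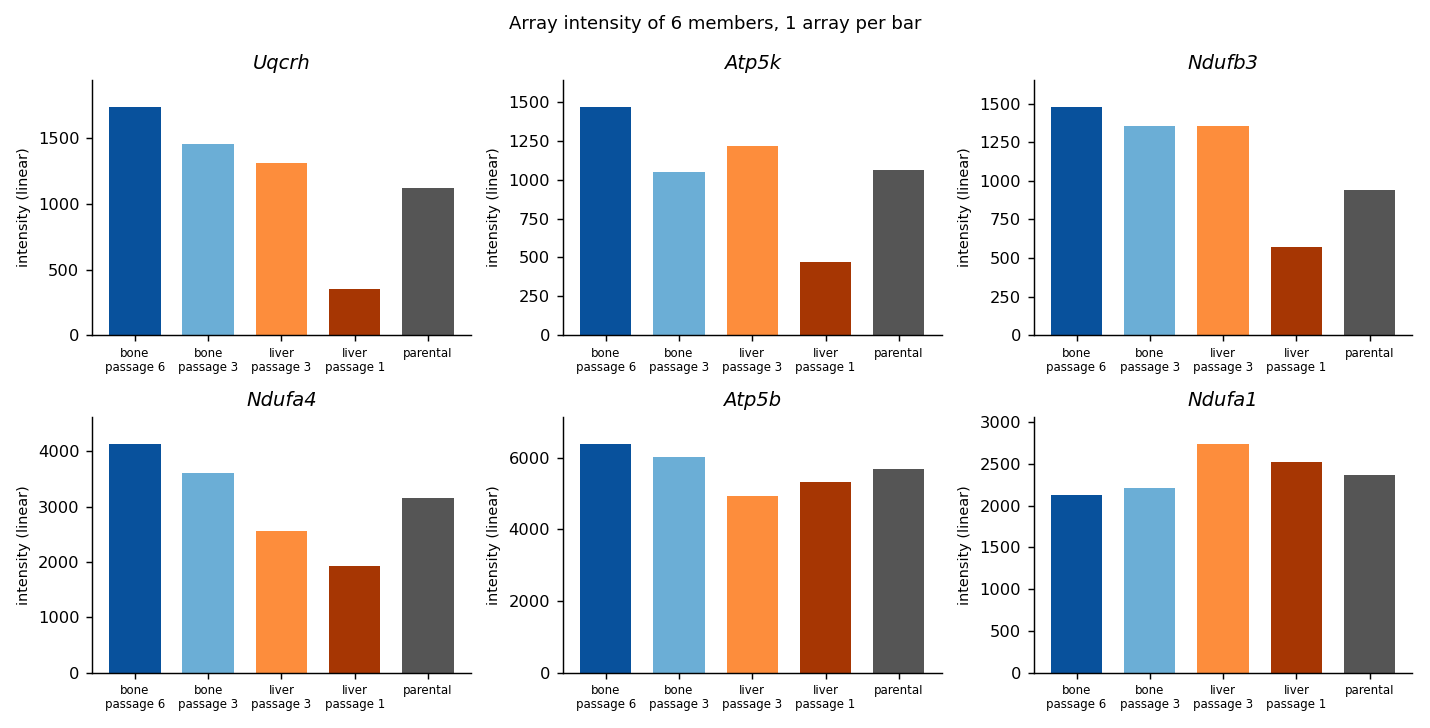
Linear array intensity (y axis) of 6 members on the 5 arrays (x axis), 1 array per bar and so no error bars. Uqcrh, Atp5k and Ndufb3 are lowest at liver passage 1 (350.6, 468 and 573), Ndufa4 and Atp5b are highest on the bone arrays and lowest on the liver arrays, and Ndufa1 has the opposite order.

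The liver passages differed less for some core and catalytic subunits than for others. The median difference between liver passages 3 and 1 was -0.04 for the 6 core subunits of complex I, against 0.18 for its 27 other subunits. It was -0.01 for the 5 F1 subunits of the ATP synthase, with Atp5b at 0.923-fold and Atp5a1 at 0.894-fold, against 0.30 for its 12 other subunits, every one of which was higher at passage 3. These divisions were made after the data were seen. Sdha and Uqcrc1, at 0.967-fold and 1.02-fold, were also close at both liver passages, whereas the Rieske protein Uqcrfs1 was 1.35-fold and the core protein Uqcrc2 0.863-fold at passage 3 relative to passage 1.

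**Figure D4:**
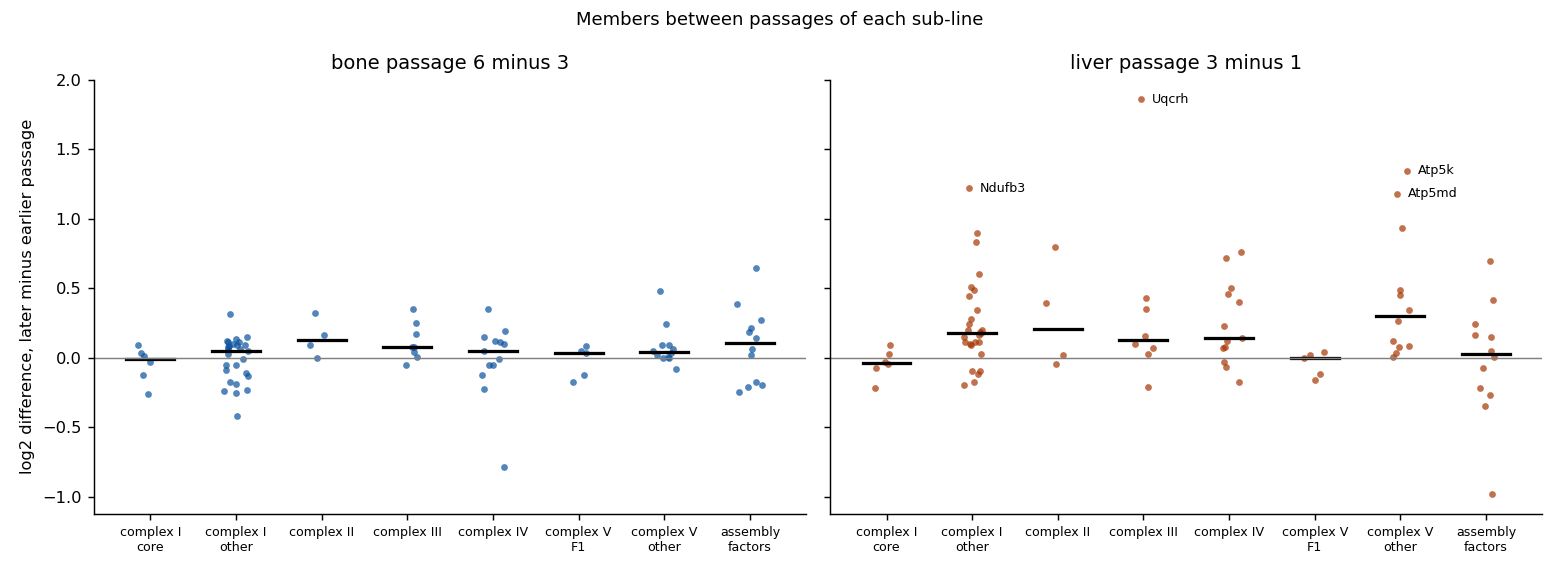
Log2 difference between passages (y axis, later minus earlier) for each tested member, by class (x axis), in the bone sub-line (left) and the liver sub-line (right); points are genes, black bars medians and each difference rests on 1 array per passage. In the liver sub-line the core subunits of complex I and the F1 subunits lie close to 0 (medians -0.04 and -0.01), while Uqcrh, Atp5k, Ndufb3 and Atp5md exceed 1.

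Where a gene had several probe sets they could be compared. Of 48 members with 2 or more probe sets past the filter, 10 had probe sets of opposite sign for bone against liver, Atp5g2, Atp5j2 and Ndufb2 among them. For Ndufb2 the dimmest probe set, with intensities between 6.2 and 31.2, gave -0.21, and the others gave 0.74 and 0.75. For Uqcrh the difference between bone and liver ran from 1.20 to 1.26 over its probe sets, and that between liver passages 3 and 1 from 1.61 to 1.86. For Atp5k the difference between liver passages ran from 1.15 to 1.35 over 3 probe sets.

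Other genes of mitochondrial and energy metabolism give the setting, and limma called none of those below in any comparison (0.190%, 0.135% and 0.0159% of all genes, as above). The median difference between bone and liver was 0.15 for 76 mitochondrial ribosomal proteins, 0.13 for 13 genes of the tricarboxylic acid cycle, 0.20 for 14 regulators of mitochondrial biogenesis, 0.07 for 16 assembly factors of cytochrome oxidase and 0.22 for 16 glycolysis genes. Both bone arrays were above both liver arrays for 7 of the 14 biogenesis regulators, 46.2% of the tricarboxylic acid cycle genes, 43.8% of the cytochrome oxidase assembly factors, 37.5% of the glycolysis genes and 35.5% of the ribosomal proteins, beside 21.2% of all genes tested. In the small lists it was so for 4 of 8 electron carriers and for 3 of 6 mitochondrial carriers and channels. Cytochrome c (Cycs), which carries electrons to complex IV, differed by 0.47 ± 0.18 and cytochrome c1 (Cyc1) by 0.37 ± 0.18, both with both bone arrays above both liver arrays (adjusted p = 0.327 and 0.424). Between liver passages 3 and 1 the median was -0.07 for the tricarboxylic acid cycle, -0.29 for the biogenesis regulators, 0.08 for the mitochondrial ribosome and 0.18 for glycolysis. Of the 14 biogenesis regulators, 9 were higher in bone than in liver on average. Among those whose motifs were counted above, Nrf1 (-0.13), Gabpa (-0.16) and Gabpb1 (-0.25) were lower in bone. Esrra (0.47) and Yy1 (0.07) were higher, and the arrays of Nrf1 and Yy1 overlapped. Nrf1 was highest at liver passage 1, at 188.1. The part of these factors in the members' levels was not tested.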

How the data were processed

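RNA of 5 cultures was measured on 1 array each. The intensity values the authors deposited are linear and cover 45101 probe sets. RMA is named, without a version, in the submitters' processing notes, although RMA output is on the log2 scale and these values are not; each array has a mean of 150 once 2% of values are trimmed from both ends. Per the labels' protocols, 5 ug of RNeasy-purified RNA was labelled with biotin. The deposited intensities were converted here to log2(intensity + 16), without further normalization, which understates the change of dim genes. Gene symbols came from the platform annotation. Each gene was represented by its brightest probe set on average, and genes whose highest intensity was at least 25.1, the median of all values, were tested (12609 of 18193).

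The test was limma 3.58.1 (lmFit, eBayes; R 4.3.3) on all 5 arrays, with 3 lines as groups and Benjamini-Hochberg adjustment over all genes tested. The 2 passages of each sub-line took the place of replicates, and the single parental array was taken to vary like them. The p-values therefore reflect no more than the spread among these arrays, which may be technical. The fit had 2 residual degrees of freedom. The number of arrays limits the precision. The alternatives were other pseudocounts (1 and 64), no filter, median centring, quantile normalization, averaged probe sets, a mean-variance trend, stage (early or final) as a block, and leaving out the sub-line arrays 1 at a time.

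The members and lists were chosen with earlier results of these data known. The rule for named members took, per comparison and direction, the 5 largest differences among members whose arrays do not overlap, the 2 brightest of each complex, the 3 members furthest apart between passages of a sub-line in either direction, members under the filter, and the catalytic subunits and isoforms whatever their values; it named 63. Further members were named after their values were seen: those under an unadjusted p of 0.05, those at least 1.5-fold apart between passages, and Ndufc1, Atp5j2 and other subunits given to complete a complex. Protein sequences were not used here. Promoters came from RefSeq (GRCm38.p6), without those of chromosome 18, and figures were drawn with matplotlib 3.10.9.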

Additional observations from a re-analysis of the deposited data

Results flagged for a closer look

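For some members the bone arrays lay on one side of the parental array and the liver arrays on the other. The limma test of bone against liver tests the difference between the sub-lines and not the place of parental cells between them. None of the named genes passed it (lowest adjusted p = 0.213, for Ndufa4). No member passed the limma tests against parental cells (lowest adjusted p = 0.500 for bone and 0.750 for liver). Both bone arrays lay above and both liver arrays below parental cells for 19 of the 87 members (21.8%), as for 5.54% of all genes tested. They were Ndufa4 (bone minus liver 0.79 on the log2 scale), Ndufb2 (0.74), Ndufa5 (0.72), Cox6b1 (0.63), Cox6c (0.48), Sdhc (0.47), Ndufs8 (0.43), Atp5a1 (0.36), Cox5b (0.31), Atp5b (0.27), Cox4i1 (0.26) and Sdha (0.18) and, outside the rule for named genes, Atp5d, Atp5h, Atp5j, Atp5o, Ndufa3, Ndufb8 and Uqcr11. The opposite order, with bone below and liver above, was seen for 3 members (3.4%; all genes 8.08%), Ndufa1 (-0.28), Ndufb11 (-0.27) and Atp5pb (-0.21). The medians of complex II (0.19), complex IV (0.26) and complex V (0.36) also had bone above and liver below the parental array. At liver passage 3 those of complexes II and IV were below it by little (-0.005 and -0.025). For these medians the difference was not tested. All these values rest on the same single parental array.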

How the results depend on the processing

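No member was called by limma in any comparison under any of the alternatives run; the lowest adjusted p of a member between bone and liver was 0.124, with a mean-variance trend. Of the named members' differences, 685 values kept their direction and side of the threshold and 15 reversed. Values are given as log2 differences. Genes called between bone and parental cells (17) were 1 with a pseudocount of 1, 1 without the filter, 37 with median centring, 9 with averaged probe sets, 31 with a trend and 8 to 52 with 1 array left out. Between liver and parental cells (2) they were 1 with a pseudocount of 1, 5 with a pseudocount of 64, 1 without the filter, 6 with median centring, 7 with a trend and 0 to 38 with 1 array left out (0 by limma without liver replicate 1 or 2, with 898 and 1231 genes at an unadjusted p under 0.05). Between bone and liver (24) they were 0 with a pseudocount of 1 and 0 without the filter (1580 and 2154 genes at an unadjusted p under 0.05), 61 with median centring, 15 with averaged probe sets, 52 with a trend, 161 with stage as a replicate block, and 0 to 75 with 1 array left out (0 without either liver array, with 1325 and 2020 genes at an unadjusted p under 0.05). The passages share only a stage number, so the replicate block is no pairing by origin. For bone against parental cells, the member median was 0.16 with median centring and 0.10 with quantile normalization. In the same 2 settings it was 0.17 and 0.10 for complex I, 0.17 and 0.09 for complex II, and 0.19 and 0.11 for complex IV, and it was 0.06 with quantile normalization for complex V. Averaged probe sets gave 0.10, 0.019 and 0.12 for complexes I, II and IV, no filter 0.13 and 0.12 for I and IV, and a pseudocount of 64 gave 0.11 for IV. With 1 array left out the ranges were 0.14 to 0.15 for complex I, 0.10 to 0.15 for complex IV and 0.051 to 0.11 for complex V. For liver against parental cells, quantile normalization reversed complexes I (0.018), III (0.016) and IV (0.036). With 1 array left out the member median ran from -0.12 to 0.008, complex I from -0.12 to 0.053 and complex III from -0.10 to 0.12, reversing without liver replicate 1 (passage 1). For bone against liver, complex III was 0.25 with median centring and 0.078 with quantile normalization, complex IV 0.33 and 0.13, and 0.085 without the filter, and complex V 0.23 with quantile normalization. With 1 array left out complex I ran from 0.11 to 0.24, III from 0.14 to 0.29, IV from 0.17 to 0.25 and V from 0.18 to 0.38. The median between bone passages 6 and 3 was 0.11 with median centring, 0.003 with averaged probe sets and -0.031, reversed, with quantile normalization. Members with both bone arrays below both liver arrays (8) were 5 with median centring and 10 to 18 with 1 array left out. Single genes that reversed between bone and liver were Uqcrq (-0.10) and Atp5g2 (-0.061) with averaged probe sets, Cox6a1 (-0.09) with quantile normalization and Atp5c1 (0.033) with median centring. With 1 array left out, Ndufs3 ran from -0.22 to 0.038, Sdhd from -0.50 to 0.30, Uqcrfs1 from -0.069 to 0.36, Cox6a2 from -0.61 to 0.18, Cox7a2 from -0.11 to 0.65, Cox7a2l from -0.029 to 0.20 and Atp5c1 from -0.13 to 0.046. Leaving out an array leaves fewer samples, and for the other settings the cause was not tested. Members near the filter, such as Cox4i2 and Cox6a2, are limited by their low signal.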
